A study of Mus musculus with 12 samples.

Results

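Islets isolated 3 days after ablation of beta cells were compared with control islets across all expressed genes. The members were chosen by sample title, which gave the 3 libraries of "DT 3 DPA" (days post-ablation) and the 3 libraries of "CTRL", 6 of the 12 libraries in the series. The study followed female mice by RNA sequencing of whole islets after partial loss of beta cells, with further groups of 3 libraries each at 1 and 5 days. All 12 libraries carried the genotype labelled NSG RIP-DTR Htz, so the controls carried the transgene too. The 3 DPA mice received diphtheria toxin (DT) and the CTRL mice are labelled with no treatment, and the labels give neither a vehicle nor an age. Nothing in the labels says whether libraries came from separate mice or from pools, so a p-value here speaks for the spread among these libraries and no further.

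In RIP-DTR mice the rat insulin promoter drives a diphtheria toxin receptor in beta cells, since the mouse receptor binds the toxin poorly. Toxin that enters a cell modifies elongation factor 2 at its diphthamide residue and stops protein synthesis, and cells with the receptor die. NSG mice lack mature T, B and natural killer cells and have defective macrophages and dendritic cells. Islets hold beta cells (insulin), alpha cells (glucagon), delta cells (somatostatin) and PP cells (pancreatic polypeptide) among endothelial, stromal, immune and nerve-associated cells.

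The deposited counts summed to between 35774473 and 48568665 per library in the 6 libraries compared. Islet identity held in both groups: Ins1 and Ins2 together took 16.9%, 16.0% and 18.7% of the counts in CTRL replicates 1 to 3 and 14.4%, 17.3% and 16.5% at 3 DPA (difference -1.13 percentage points, two-sided exact permutation p = 0.5, where 3 against 3 cannot go below 0.1). Markers of the exocrine pancreas were present in all 6 libraries. The 22 acinar genes took 5.45%, 8.83% and 1.47% of the counts in CTRL and 1.33%, 1.82% and 0.631% at 3 DPA (two-sided exact permutation p = 0.2), so the groups overlapped and CTRL replicate 2 held the most. In bulk islets, fewer cells of a type and less RNA per cell cannot be told apart. Of the 27 early response genes called below in the EGR, AP-1 and other immediate early lists, 3 DPA replicate 1 was the highest of its group in 20 and replicate 2 the lowest in 25.

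Of 17294 genes tested, 2182 differed between 3 DPA and CTRL at an adjusted p under 0.05 (edgeR's quasi-likelihood test with Benjamini-Hochberg adjustment), which is 12.6% of genes tested. They split into 1772 higher at 3 DPA (10.2%) and 410 lower (2.37%). Every 3 DPA library lay above every control in 1766 of the 1772, and in 17.9% of all genes tested. Every 3 DPA library lay below every control in 407 of the 410, and in 11.1% of all genes tested. A lack of overlap in a called gene therefore adds little to its call. The 2 directions differed in size. The genes called higher had a median log2 fold change of 1.03, and 615 of them exceeded 2, whereas the genes called lower had a median of -0.33 and 3 of them lay below -2. The median over all genes tested was -0.01. Of the calls, 81.21% were higher, and this share was 67.08% with library sizes computed without the 50 most abundant genes and 67.52% with DESeq2. Without 3 DPA replicate 1 there were 1372 calls, 1128 higher and 244 lower. With the mean log2 CPM of the acinar genes in each library as a covariate there were 1383 calls, of which 1326 were among the 2182. The number lower was 180 without 3 DPA replicate 3, 738 without CTRL replicate 1 and 995 without 1 DPA replicate 3. No gene called in the fit over all libraries changed direction in any of these.

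**Figure D1:**
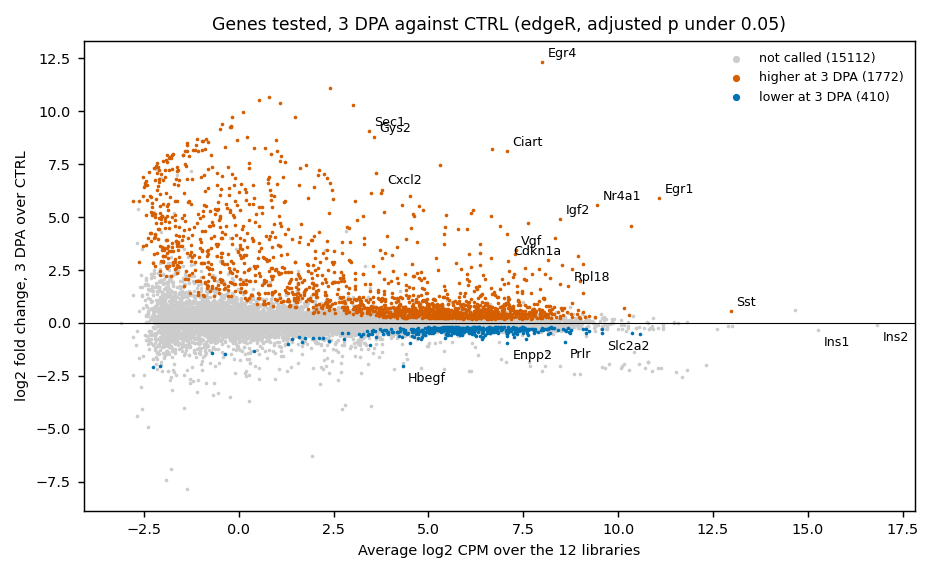
Log2 fold change of 3 DPA over CTRL (vertical axis) against average log2 CPM (counts scaled to library size) over the 12 libraries (horizontal axis), with 1 point per gene tested, orange for the 1772 genes called higher, blue for the 410 called lower and grey for the rest. Orange points reach far above 2, while nearly all blue points stay within 1 of the zero line.

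The genes called lower were longer and had more exons than the genes called higher. Over the 17257 genes tested that the GENCODE M21 annotation holds, the median gene had 7 exons, a spliced length of 3194 bases and a span of 22.0 kb. The 409 annotated genes called lower had medians of 14 exons, 5691 bases and 69.8 kb. The 1770 called higher had medians of 6 exons, 2925 bases and 16.9 kb, and the 613 of them with a log2 fold change over 2 had medians of 4 exons, 2212 bases and 10.4 kb. Genes of a single exon were 13.05% of those 613, against 6.276% of all annotated genes tested and 2.689% of those called lower. These sets also differed in expression, with a median average log2 CPM of 3.995 for all annotated genes tested, 6.01 for those called lower, 4.13 for those called higher and -0.20 for those with a log2 fold change over 2. The part of expression level in the length values was not tested.

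The 43 gene lists moved unevenly. Early response factors, clock genes, p53 targets, NF-kB genes and snoRNA host genes held shares of higher calls far above the 10.2% of all genes, and glucose sensing genes held the highest share of lower calls by edgeR over all libraries (5 of 13 tested, against 2.37% of all genes). By DESeq2 the genes of the mitochondrial genome held more (11 of 13, against 6 of 13 for glucose sensing), as they did with library sizes without the 50 most abundant genes (8 of 13 against 5 of 13). With the acinar covariate, 1 of 13 glucose sensing genes was lower, below the share of the channel and EGF lists. Each list is described below by its counts and its median, with no test of the list as a whole. Where a list is said to have none lower or none higher, the tool is edgeR. Of the 30 lists with none lower, 22 also had none lower at an unadjusted p under 0.05, 24 none by DESeq2 and 30 none by limma-voom. Of the 15 with none higher, the numbers were 10, 11 and 13. The clock list was among the exceptions, with 1 gene lower at an unadjusted p under 0.05 and by DESeq2.

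**Figure D2:**
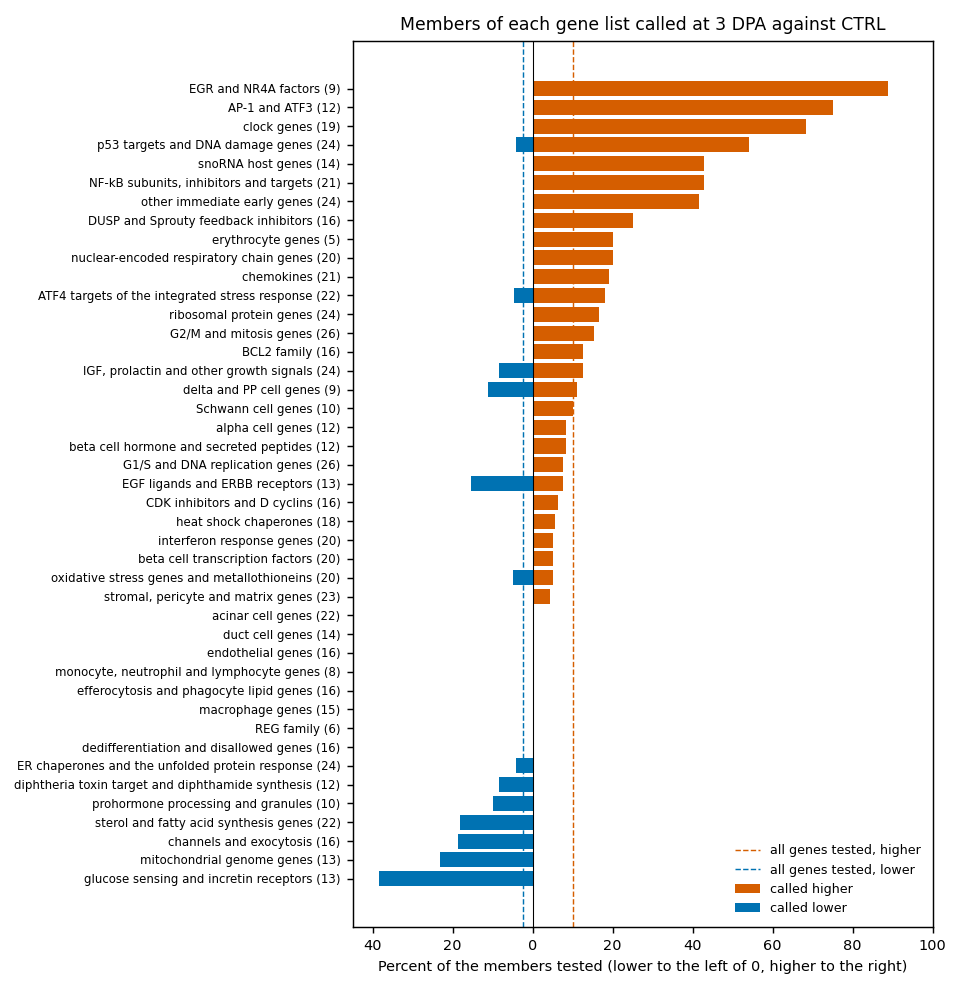
Percent of the tested members of each gene list called higher at 3 DPA (orange, right of 0) or lower (blue, left of 0), with the number of members tested in brackets and dashed lines at the 10.2% and 2.37% of all genes tested. EGR and NR4A factors, AP-1 and ATF3, clock genes and p53 targets extend furthest to the right and, by edgeR over all libraries, glucose sensing genes furthest to the left.

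The upstream sequences of 6 of the genes that rose show what elements stand there in the families described below. They were chosen after their values were seen: an EGR gene, a MAP kinase phosphatase, a clock gene, the neighbouring chemokine pair and an NF-kB subunit. Each line gives the 150 bases before the RefSeq transcription start (build GRCm38.p6), 5′ to 3′ on the strand of the gene, with capitals for a match to a searched element. The positions are chr6:85513590-85513739 (minus strand) for Egr4, chr7:142095285-142095434 (minus) for Dusp8, chr3:95882229-95882378 (minus) for Ciart, chr5:90891095-90891244 (plus) for Cxcl1, chr5:90903749-90903898 (plus) for Cxcl2 and chr19:46304587-46304736 (plus) for Nfkb2.
Egr4: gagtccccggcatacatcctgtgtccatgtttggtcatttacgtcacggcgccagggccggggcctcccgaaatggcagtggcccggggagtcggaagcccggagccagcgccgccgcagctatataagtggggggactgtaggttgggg
Dusp8: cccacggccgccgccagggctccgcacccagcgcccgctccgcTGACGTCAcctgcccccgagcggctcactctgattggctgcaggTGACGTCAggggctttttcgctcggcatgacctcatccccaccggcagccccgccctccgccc
Ciart: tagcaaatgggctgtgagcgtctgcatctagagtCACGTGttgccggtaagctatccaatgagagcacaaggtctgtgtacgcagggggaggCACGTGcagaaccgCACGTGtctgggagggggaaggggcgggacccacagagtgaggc
Cxcl1: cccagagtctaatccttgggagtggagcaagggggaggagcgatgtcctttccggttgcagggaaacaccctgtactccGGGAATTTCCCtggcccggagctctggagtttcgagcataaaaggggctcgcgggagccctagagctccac
Cxcl2: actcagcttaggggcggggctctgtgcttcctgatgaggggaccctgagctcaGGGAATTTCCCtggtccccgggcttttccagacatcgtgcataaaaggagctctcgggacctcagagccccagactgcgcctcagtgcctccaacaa
Nfkb2: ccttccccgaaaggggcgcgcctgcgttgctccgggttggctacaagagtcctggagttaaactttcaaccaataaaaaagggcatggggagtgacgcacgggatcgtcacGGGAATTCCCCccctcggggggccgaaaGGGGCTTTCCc
Dusp8 held 2 cAMP response elements (TGACGTCA), Ciart 3 E-boxes (CACGTG), Cxcl1 and Cxcl2 the same NF-kB element once each, and Nfkb2 2 NF-kB elements, while no searched element was matched in the Egr4 window.

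The elements searched, on both strands, were the cAMP response element TGACGTCA, the E-box CACGTG, the AP-1 element TGANTCA, the NF-kB element and the CArG box of serum response factor. Over the 250 bases upstream of the 12594 genes tested with a RefSeq promoter, TGACGTCA stood in 61 of the 1242 genes called higher (4.911%), against 2.581% of all promoters and 2.839% of the genes called lower. CACGTG stood in 10.789% of the genes called higher, 7.924% of all and 8.202% of those called lower. Among the 374 genes called higher with a log2 fold change over 2, TGACGTCA stood in 2.139% and CACGTG in 6.15%, both below the shares of all promoters. In the same 374 genes, TGANTCA stood in 8.289% and the NF-kB element in 6.952%, both above the shares of all promoters. The CArG box stood in 0.802% of them, below that share. In the 1242 genes called higher and in all promoters, the NF-kB element stood in 5.717% and 4.613%. TGANTCA stood in 5.153% and 4.629% of these 2 sets, and the CArG box in 1.127% and 1.08%. A match describes letters only and does not show binding.

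The EGR and NR4A families are transcription factors induced within minutes by calcium, cAMP and growth factor signals. Of 9 members tested, 8 rose and none fell, with a median log2 fold change of 5.20. Egr4 was at 0.182, 0.120 and 0.155 counts per 1000000 library counts (CPM) in CTRL and at 1255, 466 and 657 CPM at 3 DPA. Its log2 fold change of 12.32 ± 0.54 (SE, n = 3 per group, adjusted p = 2.3e-06) was the largest among the genes that the naming rule admitted. Egr1 went from 157, 55.6 and 82.8 CPM to 8099, 4199 and 5361 CPM (5.90 ± 0.46, adjusted p = 3.8e-05). Both genes were highest in replicate 1 of 3 DPA, and neither overlapped between groups. Egr2 (log2 fold change 5.55) and Egr3 (3.20) rose with them from low control levels. Among the orphan nuclear receptors, Nr4a1 rose from 48.7, 29.0 and 15.9 CPM to 1847, 1070 and 1476 CPM (5.55 ± 0.44, adjusted p = 4.5e-05). Nr4a2 (5.05) and Nr4a3 (5.20) rose by similar amounts. Nab2, a co-repressor that binds EGR proteins, rose by a log2 fold change of 0.39, and its paralog Nab1 had a value of 0.10 (not called).

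AP-1 is a dimer of FOS and JUN family proteins, and ATF3 and the small MAF proteins bind related sites. In this list 9 of 12 members tested rose and none fell (median 1.58). Atf3 was at 11.3, 2.14 and 0.998 CPM in CTRL and 283, 123 and 169 CPM at 3 DPA (log2 fold change 5.35 ± 0.81, adjusted p = 0.0023). Fosb went from 47.1, 4.11 and 7.47 CPM to 635, 353 and 563 CPM (4.73 ± 0.85, adjusted p = 0.0062). In both, CTRL replicate 1 stood above the other controls and still below every 3 DPA library. Maff, a small MAF protein, rose by 4.60, Junb by 3.16, Jun by 2.77, Fosl2 by 1.76 and Jund by 1.40 on the log2 scale. Fos itself, at 209, 63.9 and 111 CPM in CTRL and 265, 205 and 287 CPM at 3 DPA, did not pass the test (0.98 ± 0.35, adjusted p = 0.11), and its groups overlapped through CTRL replicate 1. The 3 DPA level of Jund exceeded that at 1 DPA by 1.42 (adjusted p = 7e-05) and that at 5 DPA by 1.17 (adjusted p = 0.01).

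Of 24 other immediate early genes tested, 10 rose and none fell (median 0.67), and 16 rose when CTRL replicate 1 was left out. Npas4, a neuronal and beta cell factor induced by membrane depolarization, was at 0.936, 2.21 and 1.31 CPM in CTRL and 22.1, 12.5 and 25.1 CPM at 3 DPA (log2 fold change 3.74 ± 0.36, adjusted p = 7.2e-05). Gem, a small GTPase that restrains calcium channels, rose by 4.21, the scaffold gene Homer1 by 3.08, Csrnp1 by 3.27 and Ier2 by 3.27. Myc (0.33), Srf (-0.00), Klf4 (0.21) and Zfp36 (0.55) did not pass the test. Vgf, a secreted neuropeptide precursor of endocrine granules, was at 36.7, 37.9 and 32.1 CPM in CTRL and 490, 254 and 417 CPM at 3 DPA (3.44 ± 0.28, adjusted p = 4.5e-05). It was the only member of the beta cell hormone and secreted peptide list that rose, of 12 tested (2 without 1 DPA replicate 1).

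The dual specificity phosphatases and Sprouty proteins feed back on MAP kinases, and 4 of 16 tested rose with none lower (median 0.24). Dusp4, which acts in the nucleus, went from 5.28, 6.17 and 4.90 CPM to 167, 68.8 and 114 CPM (log2 fold change 4.42 ± 0.36, adjusted p = 5.3e-05). Dusp8, whose promoter with its TGACGTCA pair is printed above, went from 22.3, 40.1 and 30.7 CPM to 712, 405 and 408 CPM (4.03 ± 0.27, adjusted p = 1.2e-05). The classic ERK feedback genes Dusp6 (0.16), Dusp5 (0.03), Spry2 (0.28) and Spry4 (0.05) did not pass the test. Dusp1 (0.85) and Spred2 (0.26) passed it, but neither did without 3 DPA replicate 1, without 3 DPA replicate 3 or with the acinar covariate, which left 2 rises in the list. Over the 20 alternative settings the call was lost in 14 for Dusp1 and in 8 for Spred2.

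**Figure D3:**
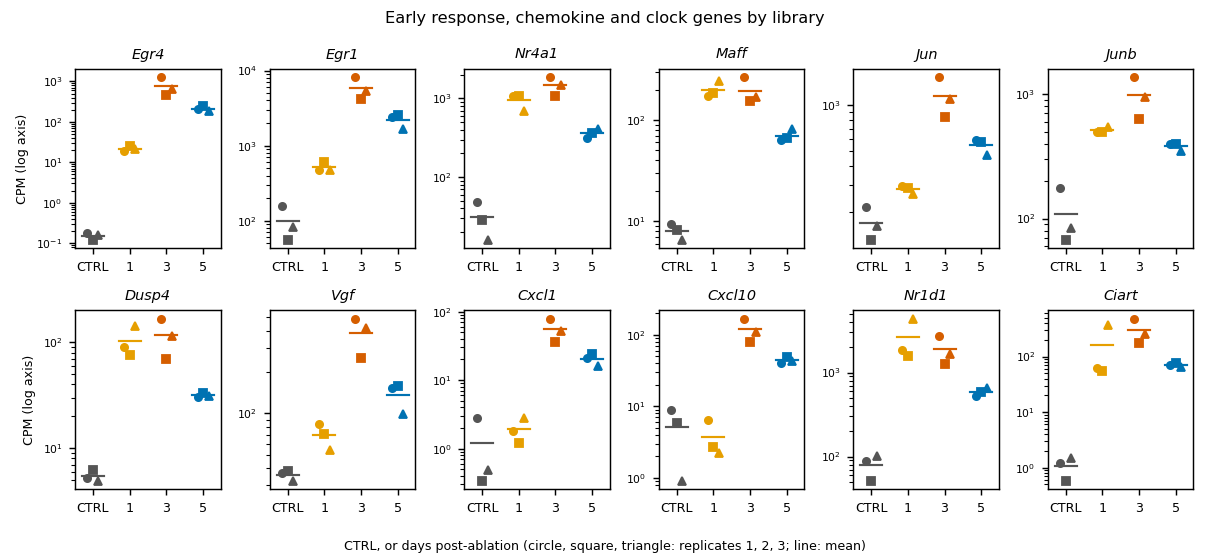
CPM on a log axis in each of the 12 libraries for 12 early response, chemokine and clock genes, by group (CTRL, then 1, 3 and 5 days post-ablation), with circles, squares and triangles for replicates 1, 2 and 3 and a line at each group mean. Every 3 DPA library lies above every CTRL library in all 12 genes, as in 1766 of the 1772 genes called higher. Cxcl1 and Cxcl10 are near the control level at 1 DPA.

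The circadian clock is a loop in which CLOCK and BMAL1 (Arntl) activate, through E-boxes, the genes of their own repressors. Of 19 clock genes tested, 13 rose and none fell (median 1.41). Ciart, a repressor of CLOCK and BMAL1 with 3 E-boxes in the sequence above, went from 1.2, 0.576 and 1.49 CPM to 482, 175 and 250 CPM (log2 fold change 8.11 ± 1.03, adjusted p = 0.0009). Nr1d1, encoding REV-ERB alpha, went from 89.5, 51.0 and 100 CPM to 2762, 1270 and 1673 CPM (4.57 ± 0.49, adjusted p = 0.00027). The E-box driven output factors Hlf (3.72), Dbp (2.99) and Tef (1.41) rose, as did Per1 (2.72), Cry1 (2.33), Nr1d2 (2.14) and Cry2 (1.17). Arntl, which REV-ERB proteins repress, rose by 0.43. Clock (-0.26), Per3 (-0.25) and Per2 (0.59) did not pass the test. The labels give no time of day of collection, which cannot be told apart from the ablation here. Against 1 DPA, 12 of the 19 clock genes were lower at 3 DPA (24.7% of all genes were), among them Nfil3 (-2.07), Arntl (-1.51) and Cry2 (-1.23).

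Dbp lies in a run of neighbouring genes that rose together on chromosome 7, a neighbourhood singled out after its values were seen. Of 14 genes tested within 70 kb of Dbp, 10 rose and none fell. In order along the mm10 assembly they were Rasip1, RP23-345D18.4, Mamstr, Fut2, Sec1, Ntn5, Car11, Dbp, Sphk2 and Rpl18, with no tested gene between them that did not rise. Sec1, a fucosyltransferase gene, was at 0.078, 0 and 0.0887 CPM in CTRL and at 45.9, 24.4 and 23.5 CPM at 3 DPA (log2 fold change 9.05 ± 1.04, adjusted p = 0.00038). Fut2, its neighbour on the same strand, went from 1.66, 0.960 and 0.421 CPM to 91.4, 52.4 and 47.8 CPM (6.0 ± 0.80, adjusted p = 0.0011). Rpl18 encodes a ribosomal protein and starts 5254 bases downstream of the end of Dbp on the same strand. It went from 182, 183 and 168 CPM to 781, 480 and 532 CPM (1.75 ± 0.29, adjusted p = 0.0029). Sphk2 (2.57) overlaps both Dbp and Rpl18 on the opposite strand, Sec1 overlaps Ntn5 and RP23-345D18.4 overlaps Rasip1. Whether strand was used in the counting is not given in the sources used here, so reads of overlapping genes may be shared between them. The block ended at Fam83e, next to Rpl18, at -0.21 (not called).

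Over the whole comparison, the nearest tested gene within 10 kb upstream on the same strand was looked up. It was called higher for 129 of the 1770 annotated genes called higher (7.288%), against 2.608% of all annotated genes tested and 0.978% of those called lower. Among genes called higher with a log2 fold change over 2 the share was 9.788% (60 of 613). The sets also differed in having such a neighbour at all. It was present for 486 of the 1770 called higher, 193 of the 613, 3605 of all 17257 and 61 of the 409 called lower. Gys2 (glycogen synthase 2, 8.77) and Spx (5.73) were neighbours on opposite strands, a pair that this same-strand count does not include, and neither flanking gene, Golt1b (0.15) or Ldhb (-0.17), was called. Gys2 was at 0.104, 0 and 0.0887 CPM in CTRL and 40.7, 23.3 and 23.7 CPM at 3 DPA. Igf2 and its antisense gene Igf2os rose side by side, next to Ins2, which was not called (-0.08).

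The p53 protein responds to DNA damage and other stress by inducing genes of arrest, repair and apoptosis. Of 24 target and DNA damage genes tested, 13 rose and 1 fell (median 0.48). Cdkn1a, which encodes the cyclin-dependent kinase inhibitor p21, was at 41.8, 42.2 and 28.3 CPM in CTRL and 310, 176 and 371 CPM at 3 DPA (log2 fold change 2.93 ± 0.27, adjusted p = 7.6e-05). Bax, a pore-forming protein of apoptosis, went from 51.1, 49.1 and 48.9 CPM to 180, 121 and 168 CPM (1.65 ± 0.14, adjusted p = 2.5e-05). The 3 controls of Bax lay within 3 CPM of each other, and every 3 DPA library exceeded them more than 2-fold. Eda2r, a member of the TNF receptor family, rose by 1.66, the nuclease gene Aen by 1.31, Phlda3 by 1.09, Tnfrsf10b by 1.06, Ccng1 by 0.86 and Mdm2, the p53 ubiquitin ligase, by 0.41. Sesn1 fell by 0.23. The BH3-only genes Bbc3 (0.36) and Pmaip1 (0.46), the death receptor gene Fas (-0.09) and Gdf15 (0.87) did not pass the test. In the BCL2 family, 2 of 16 tested rose, where 10.2% of all genes tested did. They were Bax, already counted among the p53 targets, and the survival gene Bcl2 (0.55). Bcl2 did not pass without 3 DPA replicate 1 or without replicate 3. At 3 DPA, Cdkn1a exceeded its level at 1 DPA by 1.59 (adjusted p = 0.0007) and at 5 DPA by 1.12 (adjusted p = 0.04), and Bax did so by 0.57 (adjusted p = 0.006) and 0.80 (adjusted p = 0.02).

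Of 26 genes of G1/S and DNA replication tested, 2 rose (median 0.03), and of 26 of G2/M and mitosis, 4 rose (median 0.00), with no member lower in either list. These shares stand beside the 10.2% called higher of all genes tested. Mki67, a marker of cycling cells, was at 12.3, 8.16 and 8.69 CPM in CTRL and 7.79, 8.52 and 6.32 CPM at 3 DPA (log2 fold change -0.36 ± 0.34, adjusted p = 0.58), and the groups overlapped. The 6 that rose did so from low levels. Nusap1, a spindle protein gene, went from 2.65, 2.02 and 2.26 CPM to 10.1, 9.14 and 7.19 CPM (1.93 ± 0.25, adjusted p = 0.0003). Mcm10, which acts at replication origins, went from 1.09, 1.49 and 1.38 CPM to 5.82, 3.20 and 3.35 CPM (1.64 ± 0.30, adjusted p = 0.0033). Kif20a (1.22), Birc5 (1.45), Cdc6 (1.17) and Ube2c (0.93) each lost the call without 3 DPA replicate 1, which left 1 rise in each list. The mitosis list also had 1 rise without CTRL replicate 2, and the replication list 1 without CTRL replicate 2, CTRL replicate 3 or 3 DPA replicate 2. Against 5 DPA, 12 of the 26 mitosis genes and 9 of the 26 replication genes were lower at 3 DPA, where 0.705% of all genes were. Mki67 was lower by 1.57 (adjusted p = 0.04) and Top2a by 1.52 (adjusted p = 0.04), on the log2 scale. The count against 5 DPA moved widely when single libraries were left out, as given in the closing section.

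Among CDK inhibitors and D cyclins, Cdkn1a alone of 16 tested rose, where 10.2% of all genes tested did, and none fell by edgeR. Of the 16, 10 had negative values, the lowest at -1.69. In 4 of them every 3 DPA library lay below every control, as in 11.1% of all genes tested. At an unadjusted p under 0.05, 3 were lower, and DESeq2 called 2 lower and limma-voom 0. Ccnd1 was at a log2 fold change of 0.14, Ccnd2, the main D cyclin of beta cells, at -0.27, Cdkn1b at 0.08 and Cdkn1c at -0.08. None of these 4 passed the test.

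**Figure D4:**
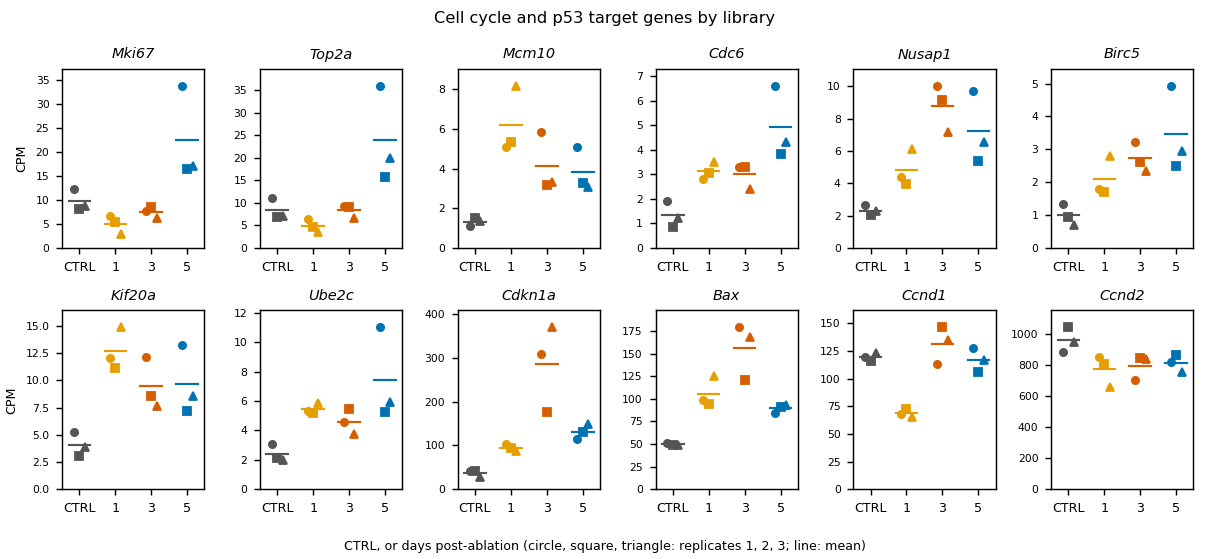
CPM in each of the 12 libraries for 12 cell cycle and p53 target genes, by group, with circles, squares and triangles for replicates 1, 2 and 3 and a line at each group mean. Mki67 and Top2a overlap the controls at 3 DPA, while Cdkn1a and Bax lie above every control and have their highest mean of the 4 groups at 3 DPA.

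Of 13 glucose sensing and incretin receptor genes tested, 5 fell and none rose, with a median log2 fold change of -0.32, and 12 of the 13 had a negative value. Slc2a2, which encodes the glucose transporter GLUT2, was at 951, 1028 and 1137 CPM in CTRL and 709, 819 and 693 CPM at 3 DPA (-0.49 ± 0.12, adjusted p = 0.016). Glp1r, the GLP-1 receptor gene, went from 183, 217 and 219 CPM to 137, 149 and 146 CPM (-0.52 ± 0.11, adjusted p = 0.0077). G6pc2, a glucose-6-phosphatase of islets, went from 1446, 1838 and 1488 CPM to 1077, 1209 and 1169 CPM (-0.47 ± 0.11, adjusted p = 0.018). In all 3 genes every 3 DPA library lay below every control. Trpm5 fell by 0.42 and Pcx by 0.32. The number of falls was 1 without 3 DPA replicate 3 and 1 with the acinar covariate, 2 without 3 DPA replicate 1, and 3 without CTRL replicate 3 or without 1 DPA replicate 2.

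Of 16 channel and exocytosis genes, 3 fell and none rose (median -0.18), and 1 fell without CTRL replicate 3. These were Kcnma1, a calcium-activated potassium channel (42.7, 47.9 and 47.1 CPM in CTRL, 33.3, 37.4 and 36.8 CPM at 3 DPA, log2 fold change -0.36 ± 0.07, adjusted p = 0.0036), and the L-type calcium channel genes Cacna1c (-0.32) and Cacna1d (-0.31). The subunits of the ATP-sensitive potassium channel, Kcnj11 (-0.13) and Abcc8 (-0.19), did not pass the test. Slc30a8, the zinc transporter of insulin granules, fell from 653, 668 and 785 CPM to 481, 561 and 494 CPM (-0.46 ± 0.11, adjusted p = 0.013), but not without 3 DPA replicate 3. It was the only one of 10 prohormone processing and granule genes that fell (2 without CTRL replicate 1 and 3 without 1 DPA replicate 3), and the convertase genes Pcsk1 (-0.15) and Pcsk2 (0.07) did not pass.

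The insulin genes and most beta cell transcription factors did not pass the test at 3 DPA. Ins1 was at 46445, 45243 and 52424 CPM in CTRL and 33657, 41654 and 38740 CPM at 3 DPA (log2 fold change -0.34 ± 0.18, adjusted p = 0.27). Ins2 was at 123650, 126590 and 137070 CPM in CTRL and 106950, 133950 and 126600 CPM at 3 DPA (-0.08 ± 0.16, adjusted p = 0.83). Ins1 did not overlap between the groups and Ins2 did. Of 20 transcription factors, only Insm1 rose (0.32), a call lost in 6 of the 20 alternative settings, and none fell, though 16 had negative values (median -0.10). Nkx6-1 (-0.40 ± 0.12, adjusted p = 0.051) and Pdx1 (-0.34 ± 0.11, adjusted p = 0.073) came closest, with every 3 DPA library below every control. Nkx6-1 was called lower in 10 of the 20 alternative settings and Pdx1 in 4. DESeq2 called 5 of the 20 lower, and library sizes without the 50 most abundant genes gave 4. Among 16 dedifferentiation and disallowed genes no call was made (median 0.25), with 4 higher at an unadjusted p under 0.05, 2 higher by DESeq2 and 0 by limma-voom.

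Among the other hormones, Sst rose from 5872, 7617 and 7032 CPM to 10200, 8630 and 11422 CPM (log2 fold change 0.56 ± 0.14, adjusted p = 0.019). It lost the call without 3 DPA replicate 1, without 3 DPA replicate 3, without CTRL replicate 1 and with the acinar covariate. Gcg was at 19871, 24773 and 25654 CPM in CTRL and 29188, 32536 and 44267 CPM at 3 DPA, with no overlap (0.59 ± 0.24, adjusted p = 0.15). Ppy was at -0.06. Of 12 alpha cell genes, 11 had positive values and 8 lay above every control in all 3 libraries at 3 DPA, as 17.9% of all genes tested did. Only Pou3f4 was called (0.97), and not in 8 of the 20 alternative settings. The summed alpha cell list ranged from 21022 to 27275 CPM in CTRL and from 30756 to 46001 CPM at 3 DPA. Its part in the beta cell values above, which share the same total, was not tested.

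**Figure D5:**
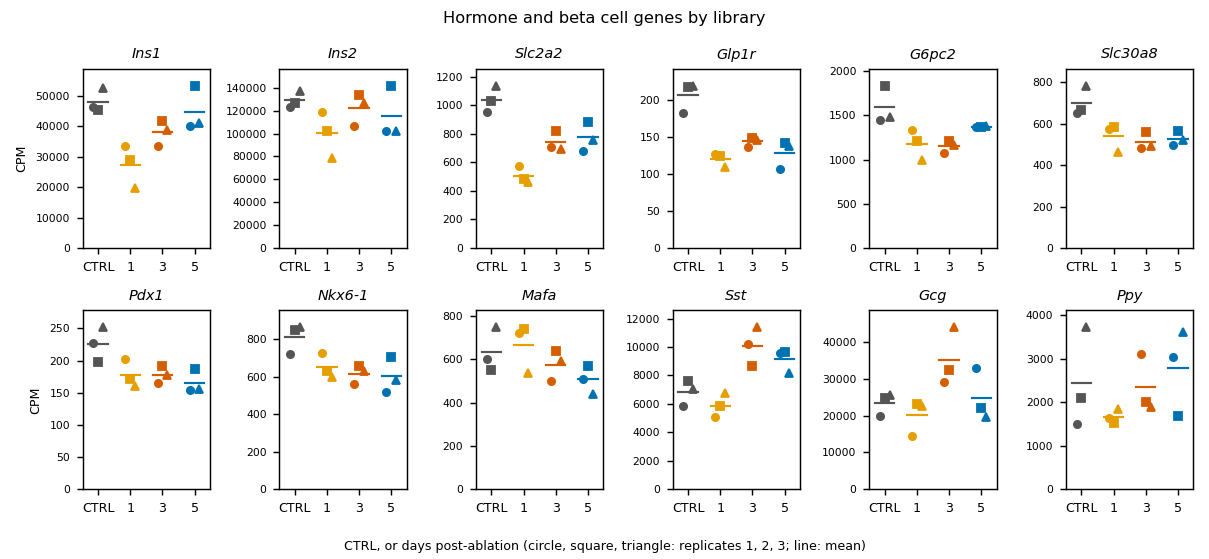
CPM in each of the 12 libraries for 12 hormone and beta cell genes, by group, with circles, squares and triangles for replicates 1, 2 and 3 and a line at each group mean. Slc2a2, Glp1r, G6pc2 and Slc30a8 lie below every control at 3 DPA, Sst lies above every control, and Ins2 and Mafa overlap the controls.

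Ligands and receptors of growth signals had a few calls in each direction. Igf2, a growth factor of the fetal pancreas, was at 15.2, 12.8 and 10.1 CPM in CTRL and 530, 238 and 362 CPM at 3 DPA (log2 fold change 4.89 ± 0.38, adjusted p = 3.7e-05). Igf2os, transcribed from the opposite strand of the same locus, went from 0.312, 0.384 and 0.333 CPM to 146, 64.2 and 97.5 CPM (8.21 ± 0.52, adjusted p = 1.6e-05). The 2 genes overlap, so reads may be shared between them. Irs2, the insulin and IGF receptor substrate, rose from 35.6, 68.4 and 49.8 CPM to 242, 189 and 214 CPM (2.07 ± 0.20, adjusted p = 7.6e-05). Irs1 (-0.24) and Igf1r (-0.04) did not pass, and Insr fell by 0.25. Prlr, the prolactin receptor through which beta cells expand in pregnancy, fell from 447, 507 and 499 CPM to 236, 273 and 267 CPM (-0.90 ± 0.16, adjusted p = 0.0028). Its targets Cish (-1.10), Socs2 (-0.47) and Tph1 (0.71) did not pass, whereas Tph2, a paralog of Tph1 in serotonin synthesis, rose by 2.25. In the whole list 3 rose and 2 fell of 24 tested (median 0.05), where 10.2% of all genes tested were higher and 2.37% lower.

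Among 13 EGF ligands and ERBB receptors, 1 rose and 2 fell (median 0.05), beside 10.2% higher and 2.37% lower of all genes tested. Btc, which encodes betacellulin, went from 2.18, 1.25 and 0.798 CPM to 6.88, 5.26 and 6.24 CPM (log2 fold change 2.12 ± 0.37, adjusted p = 0.0024). Hbegf, the mouse gene for the factor that also serves as the toxin's receptor, was at 17.4, 53.2 and 70.9 CPM in CTRL and 12.1, 9.90 and 12.8 CPM at 3 DPA (-2.02 ± 0.41, adjusted p = 0.0089). CTRL replicate 1 was closest to the 3 DPA level of Hbegf, and the call was lost when only the 2 groups entered the fit. The receptor transgene was not analysed here. Tgfa fell by 0.65, a call lost when CTRL replicate 2 or either of 3 DPA replicates 1 and 3 was left out. The number of rises in this list was 3 without CTRL replicate 2 and 2 without CTRL replicate 3 or 1 DPA replicate 2. Of the 11 other genes for the toxin's target and for diphthamide synthesis, among them Eef2 (0.04) and Dph1 (-0.03), none was called by edgeR, and 1 was called lower by DESeq2.

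NF-kB is held in the cytoplasm by inhibitor proteins that are themselves among its targets. Of 21 subunits, inhibitors and targets tested, 9 rose and none fell (median 0.50). Nfkb2, with its pair of NF-kB elements printed above, went from 41.5, 27.8 and 15.9 CPM to 236, 121 and 156 CPM (log2 fold change 2.59 ± 0.39, adjusted p = 0.002). The inhibitor gene Nfkbia rose by 2.07, the deubiquitinase gene Tnfaip3 by 1.87, and the subunit genes Rel by 2.39, Relb by 2.25 and Rela by 0.50. Nfkb1 (0.02) did not pass. Ptgs2, which encodes cyclooxygenase 2, went from 1.77, 0.336 and 0.200 CPM to 27.4, 12.5 and 26.7 CPM (4.88 ± 0.79, adjusted p = 0.0028). The nuclear inhibitor Nfkbid rose from 2.57, 1.54 and 1.53 CPM to 93.4, 63.3 and 72 CPM (5.35 ± 0.25, adjusted p = 1.3e-06), and exceeded its levels at 1 DPA by 1.97 (adjusted p = 3e-05) and at 5 DPA by 2.13 (adjusted p = 0.002). The cytokine genes Il1b (-0.21), Tnf (0.16) and Il6 (0.75) did not pass.

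Of 21 chemokines, 4 rose and none fell (median 0.24). Cxcl1 and Cxcl2, neutrophil attractants that neighbour each other on chromosome 5, carry the same NF-kB element in the sequences above. Cxcl1 went from 2.81, 0.336 and 0.488 CPM to 79.1, 35.9 and 51.8 CPM (log2 fold change 5.55 ± 0.70, adjusted p = 0.00068). Cxcl2 went from 1.2, 0.0960 and 0.155 CPM to 57.2, 23.9 and 29.6 CPM (6.30 ± 0.73, adjusted p = 0.0004). Cxcl10, a T cell attractant, went from 8.81, 5.88 and 0.909 CPM to 168, 79.3 and 110 CPM (4.53 ± 0.69, adjusted p = 0.0024). For all 3 chemokines CTRL replicate 1 was the highest control and 3 DPA replicate 1 the highest of all 6 libraries. Each also exceeded its level at 1 DPA, Cxcl1 by 4.86 (adjusted p = 0.0004), Cxcl2 by 6.91 (adjusted p = 0.0001) and Cxcl10 by 4.96 (adjusted p = 0.0006). Ccl2 rose by 1.92, a call lost in 13 of the 20 alternative settings. Of 20 interferon response genes, Cxcl10 alone rose and none fell (median 0.02), with Isg15 at -0.25 and Ifit1 at 0.51.

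Markers of immune cells gave no call. Of 15 macrophage genes tested, none was called (median -0.15), none had an unadjusted p under 0.05, and DESeq2 and limma-voom also called none. Their summed level ranged from 181 to 751 CPM in CTRL and from 312 to 528 CPM at 3 DPA. Adgre1, the macrophage surface marker F4/80, was at 20.7, 22.3 and 7.03 CPM in CTRL and 19.7, 10.4 and 17.1 CPM at 3 DPA, so the groups overlapped. Against 1 DPA, 14 of these 15 genes were higher at 3 DPA, where 20.4% of all genes were, and Adgre1 was higher by a log2 fold change of 1.38 (adjusted p = 0.02). Of the neutrophil and lymphocyte genes S100a8, S100a9, Cd3e, Ms4a1 and Nkg7, none had enough counts to be tested, and Cd3e had 0 counts in every library. The monocyte, neutrophil and lymphocyte genes that could be tested numbered 8, with a summed level of 16.9 to 78.3 CPM in CTRL and 25.3 to 48.4 CPM at 3 DPA and no call (none at an unadjusted p under 0.05 and none by DESeq2 or limma-voom).

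Other cells around the beta cells gave few calls. Of 23 stromal, pericyte and matrix genes, Timp1, an inhibitor of matrix proteases, rose from 1.85, 4.49 and 1.26 CPM to 14.6, 8.57 and 9.57 CPM (log2 fold change 2.11 ± 0.49, adjusted p = 0.017), but not without 3 DPA replicate 1 or without CTRL replicate 1. The stromal sum ranged from 1719 to 4197 CPM in CTRL and from 2975 to 3978 CPM at 3 DPA. Of 10 Schwann cell genes, Ngfr, the p75 neurotrophin receptor, rose from 14.8, 11.9 and 12.7 CPM to 37.1, 28.2 and 29.4 CPM (1.27 ± 0.21, adjusted p = 0.0024). The Schwann cell sum did not overlap, with 81.6 to 109 CPM in CTRL and 122 to 144 CPM at 3 DPA, and the defining marker Sox10 was at 0.43 (not called). The 16 endothelial genes gave no call (median -0.03, 1 lower at an unadjusted p under 0.05, 1 lower by DESeq2 and 0 by limma-voom). The 14 duct genes gave none (median 0.32, 3 higher at an unadjusted p under 0.05, 1 higher by each of DESeq2 and limma-voom).

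The acinar genes were uneven between libraries. Of 22 tested, none was called, all had negative values and their median was -2.11, with 10 lower at an unadjusted p under 0.05, 10 by DESeq2 and 0 by limma-voom. Cpb1, carboxypeptidase B1, was at 2101, 3801 and 550 CPM in CTRL and 418, 718 and 229 CPM at 3 DPA, so the groups overlapped. The REG genes, secreted proteins of stressed acinar and islet cells, varied between libraries. Reg3b was at 1.40, 2.14 and 0.177 CPM in CTRL and at 75.4, 0.170 and 0.0207 CPM at 3 DPA. Reg2 was at 2.31, 1.66 and 0.200 CPM in CTRL and at 44.0, 0.283 and 0.124 CPM at 3 DPA. Both were high in 3 DPA replicate 1 alone, whereas the summed level of the 6 REG genes tested ranged from 46.0 to 275 CPM in CTRL and from 22.8 to 312 CPM at 3 DPA. No REG gene was called of 6 tested (none at an unadjusted p under 0.05 and none by DESeq2 or limma-voom).

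The stress lists differed in their share of calls, and only the ATF4 targets exceeded the 12.6% of all genes tested called in either direction. The shares were 22.7% of ATF4 targets, 4.17% of ER chaperone genes, 5.56% of heat shock genes and 10% of oxidative stress genes. Of all genes tested, 10.2% were higher and 2.37% lower. Of 22 ATF4 targets, 4 rose and 1 fell (median -0.02). Ddit3, which encodes CHOP, rose from 13.6, 13.3 and 14.3 CPM to 44.0, 28.7 and 36.5 CPM (log2 fold change 1.41 ± 0.13, adjusted p = 3.5e-05). Ppp1r15a, which encodes GADD34, rose by 1.17, Atf4 by 0.59 and Cebpb by 0.89. Among the other members, Asns was at -0.27, Phgdh at -0.54, Trib3 at 0.15 and Chac1 at 0.00 (none called), and Aldh1l2 fell by 0.95, but not without 3 DPA replicate 1 or replicate 3. Of 24 ER chaperone and unfolded protein response genes, Sel1l alone fell (-0.43), a call lost in 11 of the 20 alternative settings, and none rose (median -0.12), with Hspa5 at 0.05 and Xbp1 at -0.06. Of 18 heat shock genes, the mitochondrial chaperone gene Hspa9 rose by 0.65, and 6 rose without CTRL replicate 2. Of 20 oxidative stress genes, Sqstm1, the autophagy receptor p62, rose by 0.41 and Mt1 fell by 0.40. Mt2, another metallothionein gene, was at 0.37 (not called).

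Of 14 snoRNA host genes, transcripts whose introns carry small nucleolar RNAs, 6 rose and none fell (median 0.44). Snhg15 went from 2.47, 2.04 and 2.73 CPM to 46.3, 22.0 and 32.8 CPM (log2 fold change 3.80 ± 0.29, adjusted p = 2e-05). Epb41l4aos rose by 1.82, Snhg12 by 1.1 and Snhg1 by 0.62, while Gas5 (0.14) and Snhg3 (0.01) did not pass. Of 24 ribosomal protein genes, 4 rose (16.7%, against 10.2% of all genes tested) and 23 had positive values. The list median was 0.11, against -0.01 over all genes tested. Rpl18, beside Dbp, rose by 1.75, and the next largest was Rpl19 at 0.29. This number was 1 when CTRL replicate 2, 3 DPA replicate 1 or 3 DPA replicate 3 was left out, 2 when CTRL replicate 1, CTRL replicate 3 or 1 DPA replicate 3 was, and 8 when 3 DPA replicate 2 was.

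Of 13 genes of the mitochondrial genome, 3 fell and none had a positive value (median -0.27), and 11 lay below every control in all 3 libraries, as 11.1% of all genes did. The fall of mt-Nd2, a complex I subunit, was from 970, 961 and 964 CPM to 766, 883 and 730 CPM (log2 fold change -0.28 ± 0.08, adjusted p = 0.039). The number of falls was 1 without 3 DPA replicate 1 or replicate 3, 9 without 3 DPA replicate 2 or 1 DPA replicate 3, 11 by DESeq2 and 0 with the acinar covariate. Of 20 nuclear genes of the respiratory chain, 4 rose and none fell (median 0.05), led by Uqcrc2 at 0.40, and 1 rose without CTRL replicate 1 or 3 DPA replicate 1 and 2 without CTRL replicate 2, CTRL replicate 3, 1 DPA replicate 3 or 3 DPA replicate 3. The difference between the 2 sets was not tested. Of 22 genes of sterol and fatty acid synthesis, 4 fell and none rose (median -0.16). Insig1, which retains the sterol sensor in the ER, went from 87.5, 106 and 98.3 CPM to 74.3, 69.4 and 70.9 CPM (-0.44 ± 0.09, adjusted p = 0.0053). Acaca (-0.33) and Scd2 (-0.28), both of fatty acid synthesis, were also among the genes that fell. The number was 7 without 1 DPA replicate 3, 2 without 3 DPA replicate 1 or replicate 3, and 1 without CTRL replicate 2.

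The largest rises outside the lists were genes nearly silent in control islets. Hormad2, a meiotic chromosome protein, had 0 counts in CTRL and 531 over the 3 DPA libraries (4.82, 3.85 and 3.45 CPM), at least 169-fold higher when the CTRL group as a whole is set to a floor of 3 counts. The histone gene Hist1h2ad had 0 and 333 counts, at least 106-fold higher, and its reads may be shared with near-identical histone copies. Otop1, a proton channel of taste cells, had 2 counts over the controls and 593 over the 3 DPA libraries, which is a ratio of 283 (exact 95% interval of 78.1 to 2346). Mc1r, the melanocortin 1 receptor, had 1 and 289 counts (276, interval of 49.2 to 10948). Cfap53, a cilium protein, had 2 and 492 counts (235, interval of 64.7 to 1947), and these intervals cover counting error only. In every one of these 5 genes all 3 libraries at 3 DPA exceeded 1 CPM while every control was at or below 0.048 CPM.

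The largest falls were small beside these. Among the 10 largest that the naming rule admitted, Hbegf led, followed by mt-Atp8 (log2 fold change -1.05). Enpp2, which encodes autotaxin, an enzyme that makes lysophosphatidic acid, went from 222, 146 and 221 CPM to 95, 103 and 109 CPM (-0.94 ± 0.15, adjusted p = 0.0018). Sh3pxd2a, a scaffold of invadopodia, went from 225, 217 and 262 CPM to 161, 138 and 120 CPM (-0.75 ± 0.11, adjusted p = 0.00069). Igfals, which stabilizes circulating IGF complexes, went from 39.0, 36.0 and 39.4 CPM to 20.4, 22.7 and 24.3 CPM (-0.76 ± 0.11, adjusted p = 0.00085). Slc23a4 fell by 1.01, Paqr6 by 0.88 and Klhdc8a by 0.84, the last not without any single 3 DPA library. The naming rule admitted only genes whose groups did not overlap, so the lack of overlap in these genes is not a further result.

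Day 3 also differed from the days around it. Against 1 DPA, 7805 genes were called (45.1%), 3534 higher and 4271 lower at 3 DPA, and against 5 DPA, 547 were called (3.16%), 425 higher (2.46%) and 122 lower. These comparisons share the 3 DPA libraries with the one against CTRL. The number called against 5 DPA ranged from 31 to 1018 with single libraries left out. Each gene named next needed a call in that comparison. Among genes called in all 3 comparisons, the naming rule gave 6 that were highest at 3 DPA: Hist1h4c, Nfkbid, Egr4, Col19a1, Serpinf2 and Ier2. It gave none that was lowest. Serpinf2, an inhibitor of plasmin, was at 0.026, 0.192 and 0 CPM in CTRL and 16.4, 8.80 and 8.84 CPM at 3 DPA, and exceeded its level at 1 DPA by 1.80 (adjusted p = 0.02) and at 5 DPA by 2.31 (adjusted p = 0.048). Col19a1, a collagen of basement membranes, went from 0.884, 0.528 and 0.488 CPM to 12.3, 9.87 and 6.57 CPM. It exceeded its level at 1 DPA by 2.16 (adjusted p = 0.001) and at 5 DPA by 1.89 (adjusted p = 0.03). For Egr4 the excess was 5.18 over 1 DPA (adjusted p = 6e-06) and 1.9 over 5 DPA (adjusted p = 0.02).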

How the data were processed

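Total RNA of whole islets was extracted with an RNeasy Mini kit and made into libraries with a QIAseq stranded mRNA kit, per the labels' protocols. The authors deposited raw read counts for 48709 genes in 12 libraries, and the submitters' processing notes name the mm10 build. How reads were aligned and counted, with which gene models and whether by strand, is not given in the sources used here. Another 36 value columns of the deposited table were not used. Samples were grouped by title.

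Counts were tested with edgeR 4.0.16 (R 4.3.3). Genes passed filterByExpr with a minimum count of 10 (17294 genes), libraries were scaled by TMM, and the robust quasi-likelihood test was fitted over all 12 libraries with Benjamini-Hochberg adjustment over all genes tested. Genes at an adjusted p under 0.05 are called. CPM are TMM-scaled, and an SE is the log2 fold change divided by the square root of F. The scripts were tested on simulated data. Totals of 29867083 to 50012558 counts per library limit precision for genes under about 1 CPM.

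Alternatives were DESeq2 1.42.0, limma-voom (limma 3.58.1), a replicate block, an acinar covariate, each library left out in turn, the 2 groups alone, no filter, RLE scaling, and scaling on libraries stripped of the 50 most abundant genes. Replicate numbers are in the labels with nothing that pairs libraries. Groups whose ranges do not meet are said not to overlap. Named genes were the 10 largest rises and falls among genes that did not overlap and averaged 1 or more on the log2 CPM scale, predicted genes excluded, up to 4 called members of smallest p in each of 43 lists, a few marker genes, and up to 6 genes called higher or lower at 3 DPA than at every other time. Other members are named to show a list's remainder, and a few members are not reported here. The members and lists were chosen with earlier results of these data known. Promoters came from RefSeq (GRCm38.p6) and gene structure from GENCODE M21, matched by symbol or gene ID.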

Additional observations from a re-analysis of the deposited data

Results flagged for a closer look

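Mt1, a metallothionein, moved in opposite directions at 3 and 1 days. It was at 93.1, 107 and 101 CPM in CTRL, at 163, 128 and 134 CPM at 1 DPA and at 76.2, 77.5 and 73.5 CPM at 3 DPA, with no overlap between any pair of these groups. The log2 fold change against CTRL was 0.50 at 1 DPA (adjusted p = 0.003) and -0.40 at 3 DPA (adjusted p = 0.035), and the difference, 3 DPA minus 1 DPA, was -0.90 (edgeR adjusted p = 8e-05). The fall at 3 DPA lost its call in 6 of the 20 alternative settings, among them each that left out a 3 DPA library. Mt2, a neighbouring metallothionein gene, was at a log2 fold change of 0.37 at 3 DPA against CTRL (not called).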

How the results depend on the processing

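Every gene called in the fit over all libraries kept its direction in all 20 alternatives. Of the 109 called genes among the 123 named by rule, 71 kept the call in every alternative and 38 lost it in at least 1. Against CTRL, the 2182 calls ranged from 1372 to 2801 with single libraries left out and fell to 1383 with the acinar covariate. The 1772 higher calls ranged from 1128 to 1806 and the 410 lower calls from 180 to 995 with single libraries left out. Lower calls numbered 942 by DESeq2, 814 with library sizes without the 50 most abundant genes, 222 with only the 2 groups and 170 with the acinar covariate. Calls against 1 DPA (7805) ranged from 6173 to 8634. Calls against 5 DPA (547) ranged from 31 (without 5 DPA replicate 2) to 1018 (without CTRL replicate 3), with 48 when 3 DPA replicate 1 was left out, 33 when 5 DPA replicate 1 was and 70 when 5 DPA replicate 3 was. They numbered 265 with the acinar covariate and 1177 by DESeq2. The cause was not tested.

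With a replicate block there were 2069 calls against CTRL, 1689 higher and 380 lower, and 340 against 5 DPA. Same-numbered CTRL and 3 DPA libraries deviated from their group means with correlations of 0.0648, -0.157 and -0.294. Differently numbered libraries did so with correlations from -0.318 to 0.358. Deviations within a group of 3 depend on each other, so these values cannot decide whether the numbers pair libraries. With single libraries left out, the difference in the share of counts, in percentage points, ranged from -5.88 to -2.20 for acinar genes, from -1.77 to -0.302 for Ins1 and Ins2 and from -0.445 to -0.257 for the mitochondrial genome.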
